A study of Mus musculus with 6 samples.

Results

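Leukocytes leave the blood by binding in steps to molecules on the inner surface of endothelial cells (ECs), and 10 genes of this system were followed in RNA from brain microvessels. They were *Icam1*, *Icam2*, *Vcam1*, *Sele*, *Selp*, *Pecam1*, *Cd34*, *Alcam*, *Cd99l2* and *Cxcl12*, chosen by name. All 10 symbols were found in each table, among 23183 symbols. Selectins slow the leukocyte until it rolls, chemokines held on the endothelium switch its integrins on, immunoglobulin-family receptors bind those integrins firmly, and junctional molecules then guide it through the wall. In healthy brain this system is kept quiet, and cytokines acting through NF-kB are known to switch on E-selectin, VCAM-1 and ICAM-1.

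The study compared TEK-cre, Crif1+/+ mice (WT, 3 mice) with TEK-cre, Crif1flox/flox mice (TEKCRIF1 KO, 3 mice), labelled C57BL/6 and with no treatment listed. Age and sex of these mice are not given in the sources used here. Both groups carry the Cre, which is driven by Tek, a gene of ECs that is also active in some blood cells. *Crif1* encodes a protein of the mitochondrial ribosome that the respiratory chain depends on. The microvessels were not sorted, so each library also holds RNA from cells attached to the vessel, and less RNA per cell cannot be told apart from fewer cells of a type. One library was made per mouse, and its values are FPKM, a read level scaled by transcript length and by library size, which allows levels of different genes to be compared. *Gadd45gip1*, the symbol used for *Crif1*, had 18.8, 15.3 and 16.5 FPKM in the WT libraries against 10.8, 7.54 and 10.4 FPKM in the KO libraries, so no label was contradicted. Throughout, 3 values of a group are listed in the order of replicates 1, 2 and 3.

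Estimated depth was 6400000 to 11600000 fragments per library, lowest in KO 2. EC markers were present throughout, with all 15 genes of the EC list over a mean of 1 FPKM. *Cldn5* ranged from 420 to 702 FPKM and *Kdr* from 45.8 to 79.4 FPKM. Of the leukocyte markers, the T-cell gene *Cd8a* was listed at 0 in every library and *Ptprc*, the common leukocyte antigen, had 0.637 to 2.89 FPKM. The neutrophil genes *S100a8* and *S100a9* reached 9.79 and 15.2 FPKM and varied widely within both groups. The summed level of the 9 measured leukocyte genes was 6.02 to 22.5 FPKM in WT and 6.26 to 22.8 FPKM in KO mice. Other cell types differed between libraries. The 5 choroid plexus genes summed to between 2943 and 3410 FPKM in WT and to 8942, 3013 and 10740 FPKM in the 3 KO libraries. The 5 fibroblast genes summed to between 1205 and 1809 FPKM in WT and to between 800 and 1105 FPKM in KO mice. The 8 astrocyte genes summed to between 628 and 749 FPKM in WT and to between 495 and 533 FPKM in KO mice. The 5 smooth muscle genes summed to 578, 246 and 262 FPKM in the WT libraries and to 775, 269 and 399 FPKM in the KO libraries.

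The levels of the 10 genes ran from a mean of over 100 FPKM down to a listed 0. *Cxcl12*, a chemokine that holds leukocytes at the abluminal side of brain vessels, was the highest of the 10 in all 6 libraries, with a mean of 114 ± 19.1 FPKM (SD over 6 libraries). *Pecam1* followed with 74.3 ± 15.2 FPKM, *Alcam* with 62.9 ± 16.5 FPKM, *Cd34* with 54.8 ± 6.62 FPKM and *Icam2* with 42.1 ± 10.6 FPKM. *Vcam1* had 33.5 ± 8.23 FPKM, *Cd99l2* 16.8 ± 1.91 FPKM and *Icam1* 13.2 ± 4.82 FPKM. Both selectins stood far below, *Selp* at 0.407 ± 0.284 FPKM and *Sele* listed at 0. The steps from *Cxcl12* to *Pecam1*, from *Vcam1* to *Cd99l2* and from *Icam1* to *Selp* held in 6 of 6 libraries. The order within the middle of the range was looser. *Pecam1* exceeded *Alcam* in 4 of 6 libraries, *Alcam* exceeded *Cd34* in 3, and *Cd34* exceeded *Icam2* in 5. *Icam2* exceeded *Vcam1* in 5 libraries and *Cd99l2* exceeded *Icam1* in 5, so these neighbours did not differ beyond their spread. In the ranking of all genes of a library, *Cxcl12* lay above at least 96.9% of genes and *Icam1* above 68.9% to 83.2%.

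**Figure D1:**
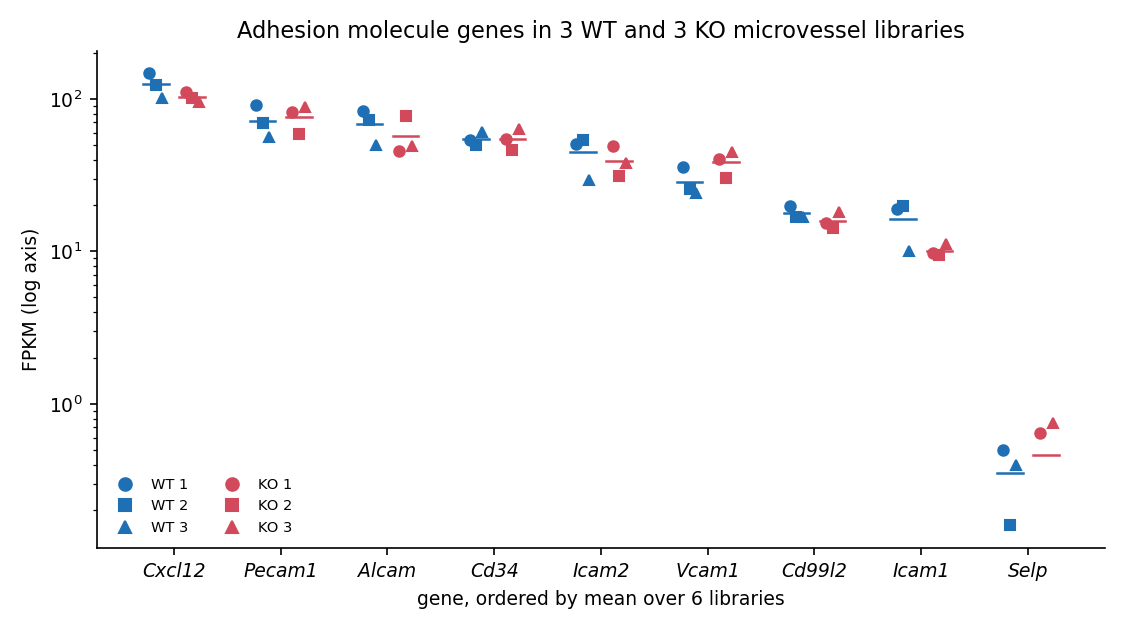
FPKM on a log axis for 9 of the 10 genes, with 1 point per library (blue WT, red KO, marker shape for replicate number) and a short line at each group mean. *Sele*, listed at 0 throughout, and the 0 of *Selp* in KO 2 cannot be drawn on this axis. The groups overlap for every gene shown, and *Selp* lies more than 10-fold below all others.

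None of the 8 genes that reached a mean of 1 FPKM passed the comparison of KO with WT mice. With limma on log2(FPKM + 1), fitted over 14247 genes, 0 of the 8 passed 0.05 after adjustment, and likewise 0 before it. Over all genes tested, 0 passed after adjustment (0%) and 838 had an unadjusted p under 0.05 (5.88%), of which 395 were higher in KO mice (2.77%) and 443 lower (3.11%). With libraries scaled to the EC list, the same count was 868 higher and 100 lower, and with libraries scaled to *Pecam1* it was 144 higher and 247 lower. The KO values did not lie wholly above or below the WT values for any of the 8 genes, compared with 11.1% of all genes tested (5.37% wholly higher and 5.7% wholly lower in KO mice). The exact two-sided permutation test used beside limma cannot give a p under 0.1 with 3 mice against 3. The nearest to a difference were *Icam1*, lower in KO mice, and *Vcam1*, higher in KO mice, with unadjusted limma p-values of 0.054 and 0.0955 and an exact permutation p of 0.2 each. The estimate was below 0 for 6 of the 8 genes, as it was for 7240 of the 14247.

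**Figure D2:**
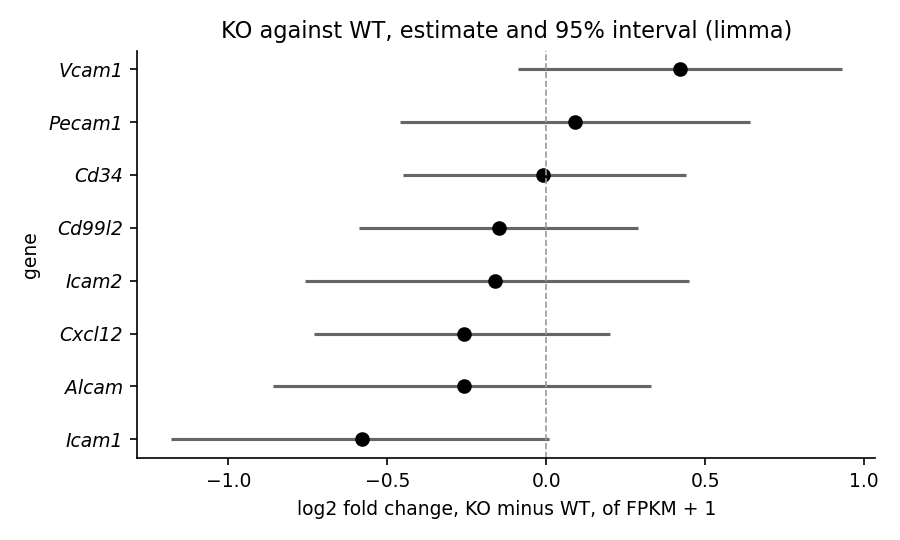
Estimated log2 fold change of FPKM + 1, KO minus WT, for the 8 genes tested, with the 95% interval from limma. All 8 intervals include 0; that of *Icam1* runs from −1.18 to 0.01 and that of *Vcam1* from −0.09 to 0.93.

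The selectins start the contact between leukocyte and endothelium by binding sugars on the leukocyte, chiefly on PSGL-1. *Sele* (E-selectin, 1 annotated transcript of 2912 bases) was listed at 0 in every library, as were 4377 of all genes (18.9%). A listed 0 need not mean an absent transcript, because 72 of the 8499 genes that reached 10 FPKM somewhere were listed at 0 in another library. If it stands for a count of 0, then 3 fragments, the limit used here, would correspond to 0.0888 to 0.161 FPKM, a limit for counting error only. *Selp* (P-selectin), which ECs and platelets store in granules, had 0.497, 0.16 and 0.395 FPKM in WT 1, WT 2 and WT 3. It had 0.641 and 0.746 FPKM in KO 1 and KO 3 and was listed at 0 in KO 2. These values rest on an estimated 0 to 30 fragments, with 5 in WT 2, and the groups overlap widely (exact two-sided permutation p = 0.7). The platelet genes *Pf4*, *Ppbp*, *Gp1ba*, *Gp9* and *Itga2b* summed to 33.7 to 47.1 FPKM in WT and to 27.1 to 37.4 FPKM in KO mice, and their part in the *Selp* signal was not tested. PSGL-1 itself, *Selplg*, had 3.63 to 4.93 FPKM in WT and 2.82 to 4.93 FPKM in KO mice.

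The promoters of the 3 genes at the lowest levels are shown because *Sele* and *Icam1* are known NF-kB targets that differed in baseline level. They are the 250 bases before the RefSeq start site on GRCm38.p6, 5′ to 3′, at chr1:164047984-164048233 for *Sele*, chr9:21015690-21015939 for *Icam1* and chr1:164115014-164115263 for *Selp*, all on the plus strand. Capitals mark matches to GGANNTTCC, a core shared by many NF-kB sites, and to the TATA box letters TATAAA, both searched on both strands.

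Sele: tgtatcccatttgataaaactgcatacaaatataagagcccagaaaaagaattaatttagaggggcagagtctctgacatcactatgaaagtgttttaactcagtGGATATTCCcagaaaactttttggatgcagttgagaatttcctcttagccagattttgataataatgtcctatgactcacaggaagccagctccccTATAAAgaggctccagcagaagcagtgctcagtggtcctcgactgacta

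Icam1: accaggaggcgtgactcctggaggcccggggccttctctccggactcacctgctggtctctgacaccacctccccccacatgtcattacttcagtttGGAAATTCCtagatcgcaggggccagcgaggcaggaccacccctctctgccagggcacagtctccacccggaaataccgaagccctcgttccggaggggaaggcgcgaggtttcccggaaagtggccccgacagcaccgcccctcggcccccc

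Selp: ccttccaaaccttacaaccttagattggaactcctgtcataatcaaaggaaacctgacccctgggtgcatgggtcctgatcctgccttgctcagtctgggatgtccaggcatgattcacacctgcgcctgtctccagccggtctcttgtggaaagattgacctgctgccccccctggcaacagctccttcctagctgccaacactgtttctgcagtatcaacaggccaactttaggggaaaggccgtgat

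*Sele* and *Icam1* each held a single GGANNTTCC match, the first 145 to 137 bases and the second 153 to 145 bases before the start. Of 32851 such windows over all genes, 3.59% held a match. *Sele* also held TATAAA 49 to 44 bases before the start, as did 12.4% of windows somewhere in their length. *Selp* held neither. Windows were also at hand for *Cd34*, *Alcam*, *Cd99l2* and *Cxcl12*, and none of those 4 held either motif. GGGCGG, the GC-box letters, occurred 5 times in the *Cxcl12* window and 2 times each in those of *Alcam* and *Cd99l2*, once in *Icam1*, and in 32.7% of all windows. The motif letters were chosen after the sequences had been read, and a match is not evidence of binding.

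*Icam1* (ENSMUSG00000037405.8, chr9:21015985-21028817, plus strand, GRCm38 with GENCODE M21, as for all gene positions here) encodes ICAM-1, the endothelial ligand of the leukocyte integrins LFA-1 and Mac-1. It had 19.0, 19.7 and 10.1 FPKM in the WT libraries against 9.78, 9.47 and 11.1 FPKM in the KO libraries. WT 1 and WT 2 stood above the other 4 libraries, and WT 3 lay among the KO mice. The means were 16.3 ± 5.37 FPKM in WT and 10.1 ± 0.888 FPKM in KO mice (± SD of 3 mice), and KO was the lower in 8 of the 9 pairings of a KO with a WT mouse. The log2 fold change was −0.58 (SE 0.27, limma p = 0.054, adjusted p = 0.841, exact permutation p = 0.2). Its size depended on the WT library left out, with −0.88 without WT 3, −0.45 without WT 1 and −0.43 without WT 2. It was −0.56 without KO 1, −0.54 without KO 2 and −0.65 without KO 3. With 1 library left out, the unadjusted p passed the threshold of 0.05 only without WT 3, with an adjusted p of 0.89 in limma. Each value rests on an estimated 154 to 555 fragments.

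Some genes of other cell types moved with *Icam1*. The fibroblast genes summed to 1809 and 1593 FPKM in WT 1 and WT 2, to 1205 FPKM in WT 3 and to at most 1105 FPKM in KO mice. *Col1a1* and *Col1a2* carried that sum, with 812 and 717 FPKM in WT 1. *Dcn*, *Lum* and *Pdgfra* followed *Icam1* less. In WT 2, the library highest in *Icam1*, they had 167, 14.1 and 22.1 FPKM. *Dcn* and *Lum* were higher in KO 1, at 176 and 20.2 FPKM, and *Pdgfra* in KO 3, at 24.4 FPKM. The 10 microglia and macrophage genes summed to 251 to 320 FPKM in WT and to 201 to 250 FPKM in KO mice. Their part in the *Icam1* values was not tested.

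*Icam2* (chr11:106377656-106388075) encodes ICAM-2, the constitutive endothelial ligand of LFA-1. It had 50.7, 54.0 and 29.5 FPKM in the WT libraries against 49.3, 31.1 and 37.7 FPKM in the KO libraries. WT 3 was again the lowest WT library, and here it was the lowest of all 6, so the groups overlap fully. The log2 fold change was −0.16 (SE 0.27, limma p = 0.576, exact permutation p = 0.7). With 1 library left out it was −0.43 without WT 3, −0.33 without KO 1, −0.04 without WT 1 and 0 without WT 2 or without KO 2. *Icam2* exceeded *Icam1* in every library, by 2.66, 2.74 and 2.92 times in WT 1, WT 2 and WT 3 and by 5.04, 3.29 and 3.39 times in KO 1, KO 2 and KO 3. Each KO mouse lay above all WT mice in that ratio (exact permutation p = 0.1), as was so for the ratio to *Icam1* of 17.7% of all genes.

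*Vcam1* (ENSMUSG00000027962.14, chr3:116109949-116129688) encodes VCAM-1, which binds the integrin VLA-4 on lymphocytes and monocytes. It had 35.5, 25.7 and 24.3 FPKM in the WT libraries against 40.4, 30.2 and 45.0 FPKM in the KO libraries. KO 1 and KO 3 exceeded every WT library, and KO 2 lay between WT 1 and WT 2. The means were 28.5 ± 6.12 FPKM in WT and 38.5 ± 7.53 FPKM in KO mice (± SD of 3 mice). The log2 fold change was 0.42 (SE 0.23, limma p = 0.0955, adjusted p = 0.841, exact permutation p = 0.2), with an estimated 791 to 2132 fragments behind each value. The unadjusted p passed the threshold of 0.05 without KO 2, without WT 1 and with libraries scaled to the EC list. The adjusted limma p was 0.305, 0.963 and 0.673 in these settings. After removal of a trend on GC content from each library the estimate was 0.25. Of the 10 genes *Vcam1* has the lowest GC content of its longest transcript (40.1%) and *Icam1* the highest (55.4%).

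Choroid plexus genes were highest in the 2 libraries highest in *Vcam1*. KO 1 and KO 3, the libraries highest in *Vcam1*, were also those with 8942 and 10740 FPKM of choroid plexus genes, of which *Ttr*, the transthyretin carrier protein, had 8260 and 9790 FPKM. *Ttr* and *Vcam1* ranked the 6 libraries alike (Spearman rho of 1, Pearson r of 0.884, a description over 6 libraries from 2 groups). *Ttr* was picked for its likeness to *Vcam1* among 155 candidates, and the rest of the list ranked the libraries otherwise. *Folr1*, *Kcnj13* and *Aqp1* were lowest in KO 2, at 103, 69.7 and 45.0 FPKM, although *Vcam1* was higher there than in WT 2 and WT 3. Without both of these libraries, a setting chosen after the values were seen, the *Vcam1* estimate was 0.10 (limma, adjusted p = 0.889). They were the 2 highest in *Vcam1*, so the estimate had to shrink without them, and KO 2 was then the only KO mouse. The 5 smooth muscle genes were also highest in KO 1, WT 1 and KO 3, with sums of 775, 578 and 399 FPKM, and reached at most 269 FPKM elsewhere. The part of choroid plexus tissue and of smooth muscle in the *Vcam1* values was not tested.

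**Figure D3:**
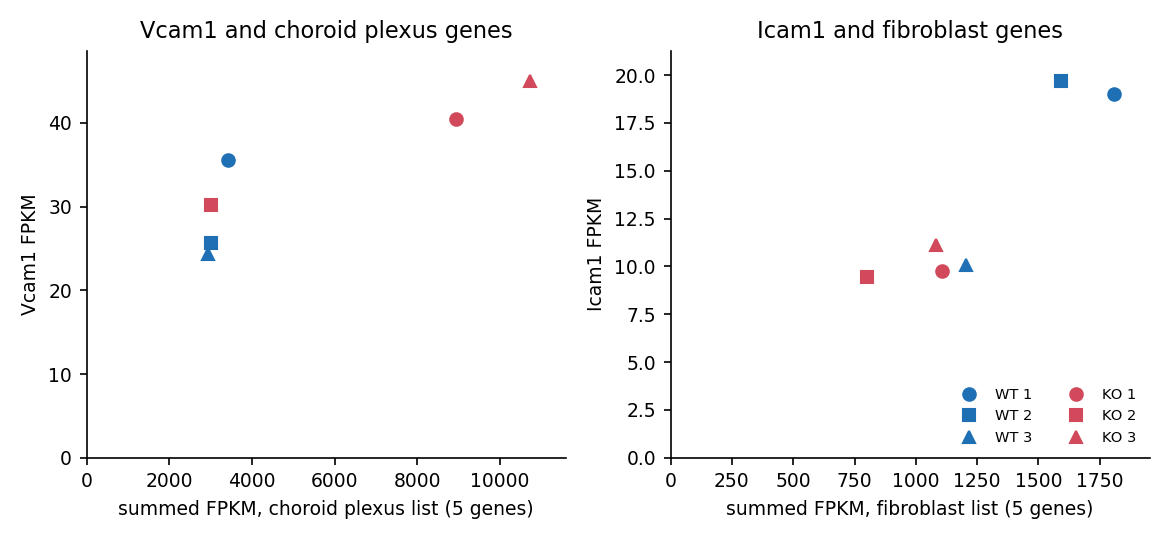
Left, *Vcam1* FPKM against the summed FPKM of 5 choroid plexus genes; right, *Icam1* FPKM against the summed FPKM of 5 fibroblast genes, with 1 point per library. KO 1 and KO 3 stand apart on the left at 8942 and 10740 FPKM, and WT 1 and WT 2 stand apart on the right at 1809 and 1593 FPKM. The left sum is mostly *Ttr* and the right sum mostly *Col1a1* and *Col1a2*.

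The 8 genes were also compared with one another inside each library, a step added after the values had been seen. The summed level of the 15 EC genes was 1211 to 1615 FPKM in WT and 1033 to 1420 FPKM in KO mice. Ratios of FPKM were formed for all 28 pairs. In 7 pairs the KO and WT ratios did not overlap, and 5 of the 7 involved *Vcam1* and 3 *Icam1*. Over all pairs of the 14247 genes tested, 11.2% did not overlap on the scale of log2(FPKM + 1), on which the 8 genes also gave 7 of 28. The 28 pairs share their genes and are not independent. The ratio of *Vcam1* to *Icam1* was 1.87, 1.30 and 2.40 in the WT libraries against 4.13, 3.19 and 4.03 in the KO libraries, means of 1.86 ± 0.549 and 3.78 ± 0.515 (± SD of 3 mice, exact permutation p = 0.1). The denominator *Icam1* itself had the lower mean in KO mice, and 17.7% of all genes had a ratio to it that was higher in each KO mouse than in each WT mouse.

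Set against *Pecam1*, with means of 72.1 FPKM in WT and 76.5 FPKM in KO mice, the ratios parted in both directions. *Vcam1* over *Pecam1* was 0.391, 0.370 and 0.435 in the WT libraries against 0.493, 0.514 and 0.506 in the KO libraries. In KO 2 the choroid plexus sum was 3013 FPKM, inside the WT range, but *Ttr* alone had 2770 FPKM of it. *Kl*, at 24.8 FPKM, was also inside the WT range. *Folr1*, *Kcnj13* and *Aqp1*, at 103, 69.7 and 45.0 FPKM in KO 2, lay below all WT libraries. The part of choroid plexus tissue in the ratios to *Pecam1* was not tested. *Icam1* over *Pecam1* was 0.209, 0.283 and 0.181 in WT mice and 0.120, 0.161 and 0.125 in KO mice, in the same order of libraries. Over all genes, the ratio to *Pecam1* lay wholly to one side in KO mice for 6.46%, which were 1.74% higher and 4.72% lower. Both ratios had an exact permutation p of 0.1, the smallest that 3 mice against 3 allow. With a trend on GC content removed from each library, 2 of the 28 pairs did not overlap, against 9.71% of all pairs of genes. *Icam1* with *Pecam1* was among them, with a log2 difference of −0.57, whereas *Vcam1* with *Pecam1* (0.16) and *Vcam1* with *Icam1* (0.73) overlapped.

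**Figure D4:**
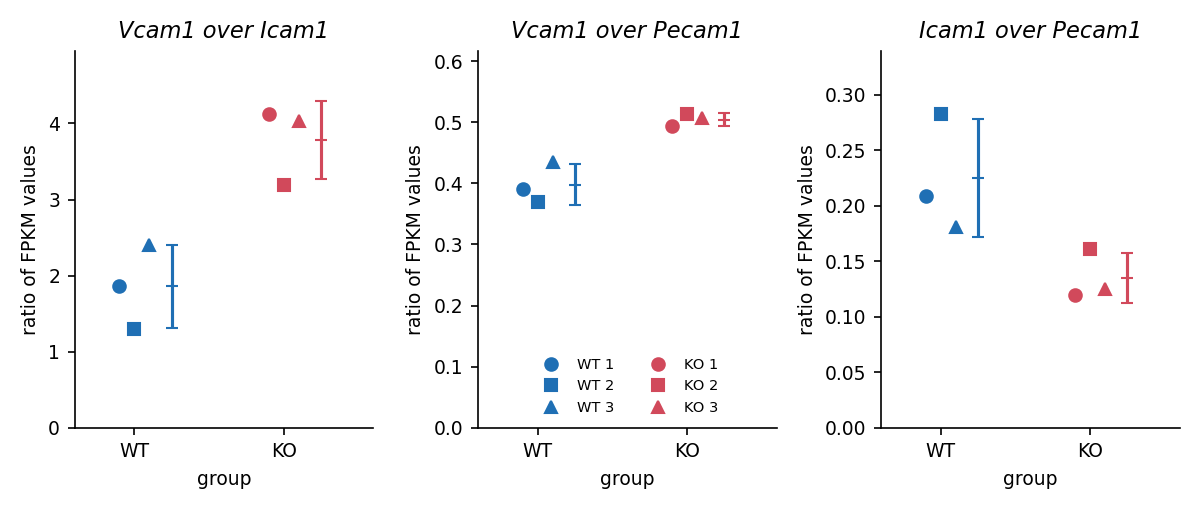
Ratios of FPKM values within a library, with 1 point per library and, to the right of the points, the group mean and SD (n = 3 each). *Vcam1* over *Icam1* lies between 1.30 and 2.40 in WT mice and between 3.19 and 4.13 in KO mice, and the ratios to *Pecam1* part in opposite directions.

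*Pecam1* (chr11:106654217-106750628) encodes PECAM-1, a junctional receptor that binds itself across cells and guides leukocytes through the endothelial border. It had 90.9, 69.6 and 55.8 FPKM in the WT libraries against 81.8, 58.8 and 88.9 FPKM in the KO libraries. WT 3 and KO 2 were the lowest and WT 1 and KO 3 the highest, so each group held a low and a high library. The log2 fold change was 0.09, with a 95% interval of −0.46 to 0.64 (limma p = 0.717, exact permutation p = 0.8). It was −0.08 without WT 3, −0.03 without KO 3 and 0.27 without WT 1 or without KO 2. The groups overlap widely.

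*Cd99l2* (chrX:71420060-71492849) encodes a relative of CD99 that also acts at the junction during transmigration. It was the steadiest of the 8, with 19.7, 16.9 and 16.8 FPKM in the WT libraries against 15.3, 14.3 and 18.1 FPKM in the KO libraries. Its coefficient of variation over the 6 libraries was 11.4%, against 36.5% for *Icam1*. KO was the lower in 7 of 9 pairings (log2 fold change −0.15, SE 0.20, limma p = 0.452, exact permutation p = 0.3). The estimate was −0.08 without WT 1, −0.09 without KO 2 and −0.25 without KO 3. CD99 itself could not be analysed, because the symbol *Cd99* was not among those measured.

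*Cd34* (chr1:194938819-194961279) encodes a sialomucin of the luminal EC surface. It had 54.1, 49.6 and 60.6 FPKM in the WT libraries against 54.7, 46.0 and 63.8 FPKM in the KO libraries. The group means were 54.8 ± 5.51 and 54.9 ± 8.90 FPKM (± SD of 3 mice), and the 95% interval of the log2 fold change ran from −0.45 to 0.44.

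*Alcam* (chr16:52248996-52454074) encodes ALCAM, a ligand of CD6 on T cells that also binds itself. Its values fell into 2 levels that cut across the genotypes. WT 1, WT 2 and KO 2 had 83.1, 72.9 and 76.9 FPKM, and WT 3, KO 1 and KO 3 had 49.7, 45.6 and 49.1 FPKM. The log2 fold change was −0.26 (SE 0.27, limma p = 0.347, exact permutation p = 0.4), and with 1 library left out it was −0.48 without WT 3, −0.49 without KO 2, −0.11 without WT 1, −0.12 without KO 1, −0.18 without KO 3 and −0.20 without WT 2. *Cd6*, the T-cell receptor for ALCAM, was listed at 0 in all 6 libraries.

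*Cxcl12* (chr6:117168535-117181367) had 147, 124 and 102 FPKM in the WT libraries against 111, 102 and 94.9 FPKM in the KO libraries. KO was the lower in 8 of 9 pairings, and the exception was KO 1 against WT 3. The means were 124 ± 22.2 FPKM in WT and 103 ± 8.05 FPKM in KO mice (± SD of 3 mice), which gave −0.26 on the log2 scale (SE 0.21, limma p = 0.238, exact permutation p = 0.2). The estimate was −0.14 without WT 1 and −0.39 without WT 3. Fibroblasts and mural cells are also known sources of this chemokine. The 9 pericyte genes summed to 845 to 1353 FPKM in WT and to 885 to 981 FPKM in KO mice. The estimate was below 0 for 8 of the 9, and 4 of them, *Pdgfrb*, *Anpep*, *Cspg4* and *Notch3*, lay wholly lower in KO mice. Of all genes tested, 7240 of 14247 had an estimate below 0 and 5.7% lay wholly lower. All 5 smooth muscle genes had an estimate above 0, and 0 of them lay wholly higher in KO mice. The estimate was above 0 for 7007 of all genes tested. The part of pericytes and smooth muscle cells in the *Cxcl12* values was not tested. Its receptors were both measured. *Cxcr4*, the signalling receptor, ranged from 8.28 to 14.2 FPKM over the 6 libraries, and *Ackr3*, the scavenging receptor known in brain ECs, ranged from 16.9 to 34.4 FPKM. Neither passed the test (limma p = 0.923 and 0.983, exact permutation p of 1.0 for both).

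The leukocyte integrin genes *Itgal*, *Itgb2* and *Itga4* were at low levels, and the part of microglia and macrophages in their values was not tested. Of 17 counter-receptors and partners, 12 were tested, and 0 passed 0.05 either before or after adjustment. The count before adjustment was 2 without WT 3, 2 without KO 3, 1 with no filter and 1 with no trended variance. *Itgal*, the alpha chain of LFA-1, had 0.716 to 1.15 FPKM in WT and 0.458 to 1.24 FPKM in KO mice. *Itgb2*, its beta chain, had 2.96, 3.04 and 2.50 FPKM in the WT libraries against 1.69, 0.376 and 2.52 FPKM in the KO libraries (limma p = 0.104, exact permutation p = 0.2). *Itga4* and *Itgb1*, the chains of VLA-4, had means over 6 libraries of 4.92 and 127 FPKM. *Itgb1* is also a chain of the matrix integrins of ECs and mural cells. The median log2 fold change of the 12 was −0.117, beside −0.006 for all genes tested.

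Among 17 other adhesion and transmigration genes tested, 1 was higher and 2 were lower in KO mice before adjustment of p, and 0 after it. *Cdh5*, VE-cadherin of the adherens junction, had 86.7, 92.4 and 91.3 FPKM in the WT libraries against 50.8, 42.5 and 38.1 FPKM in the KO libraries. The groups lay far apart (log2 fold change −1.03, limma p = 3.03e-04, adjusted p = 0.841, exact permutation p = 0.1). *F11r*, the junctional adhesion molecule JAM-A, had 27.5 to 29.7 FPKM in WT and 50.6, 30.1 and 48.8 FPKM in the 3 KO libraries (log2 fold change 0.53, limma p = 0.0446, adjusted p = 0.841, exact permutation p = 0.1). JAM-A is also known in epithelia, and the KO libraries high in *F11r* were those high in choroid plexus genes, whose part was not tested. *Thy1*, which is also a neuronal surface protein, stood at −0.72 on the log2 fold change scale (limma p = 0.0422, adjusted p = 0.841, exact permutation p = 0.2). It had 78.7, 97.6 and 122 FPKM in the WT libraries against 64.2, 87.0 and 36.6 FPKM in the KO libraries. The 7 neuronal genes summed to 228, 373 and 481 FPKM and to 230, 413 and 175 FPKM in the same order, and their part in the *Thy1* values was not tested. *Bsg*, basigin, was the highest of the list with a mean of 2430 FPKM, and *Cav1*, caveolin-1, had 86.2 FPKM, with limma p-values of 0.807 and 0.0532 and exact permutation p-values of 0.7 and 0.2.

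The chemokine list held 12 genes, of which 7 were tested and 1 had an unadjusted p under 0.05. That was *Cx3cl1*, fractalkine, a membrane-bound chemokine made by neurons and ECs that also acts as an adhesion molecule. It had 58.3, 67.0 and 87.1 FPKM in the WT libraries against 36.4, 45.6 and 42.2 FPKM in the KO libraries. The highest KO value lay under the lowest WT value (log2 fold change −0.75, limma p = 0.00572, adjusted p = 0.841, exact permutation p = 0.1). With libraries scaled to the EC list, 0 genes of the chemokine list passed before adjustment. The count was 2 with the GC correction, 2 without KO 1 and 3 without KO 2. Neuronal genes summed to 228 to 481 FPKM in WT and to 175 to 413 FPKM in KO mice, and their part was not tested. *Ackr1*, a chemokine-binding receptor of venules, ranged from 23.3 to 33.6 FPKM in WT and from 11.6 to 25.3 FPKM in KO mice (limma p = 0.0829, exact permutation p = 0.2).

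The NF-kB and cytokine receptor list, which holds the pathway that induces these receptors, had 25 genes tested. Before adjustment 2 genes passed as higher and 3 as lower in KO mice, with 0 left after it. *Klf2*, a flow-induced factor known to restrain adhesion molecule expression, had 58.2, 48.5 and 40.5 FPKM in the WT libraries against 30.8, 31.0 and 29.8 FPKM in the KO libraries. The groups did not overlap (log2 fold change −0.65, limma p = 0.00822, adjusted p = 0.841, exact permutation p = 0.1). The related factor *Klf4* had 22.3 to 27.5 FPKM in WT and 13.8 to 19.5 FPKM in KO mice (log2 fold change −0.63, limma p = 0.0138, exact permutation p = 0.1). *Nfkb2*, the p100 subunit gene, had 5.77 to 8.05 and 3.06 to 4.96 FPKM (log2 fold change −0.62, limma p = 0.0355, exact permutation p = 0.1). *Tradd*, an adaptor of TNF receptor 1, had 2.46 to 3.86 FPKM in WT and 5.03 to 7.78 FPKM in KO mice (log2 fold change 0.88, limma p = 0.00856, exact permutation p = 0.1). The adjusted p was 0.841 for *Klf4*, *Nfkb2* and *Tradd* too. *Tnfrsf1a*, that receptor, had 34.8 to 50.9 and 31.6 to 44.7 FPKM (limma p = 0.468, exact permutation p = 0.5).

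*Nfkbia*, the inhibitor IkB-alpha and itself an NF-kB target, was the list gene whose pattern was most like that of *Vcam1*. It had 32.5, 25.5 and 23.4 FPKM in the WT libraries against 41.6, 30.2 and 47.1 FPKM in the KO libraries (log2 fold change 0.52, limma p = 0.0457, adjusted p = 0.841, exact permutation p = 0.2). Like *Vcam1*, it was highest in KO 3 and KO 1, the libraries with choroid plexus sums of 10740 and 8942 FPKM, and overlapped in KO 2. The part of choroid plexus tissue in the *Nfkbia* values was not tested either. Of the 10 genes that link these receptors to the actin skeleton, 0 had an unadjusted p under 0.05, with log2 fold changes from −0.21 to 0.31. *Ezr*, ezrin, ranged from 75.6 FPKM in KO 2 to 232 FPKM in KO 3, and *Actn4*, alpha-actinin 4, from 247 to 325 FPKM. Over the 5 lists together, 9 of 71 genes tested had an unadjusted p under 0.05 (12.7%), beside 5.88% of all genes. With 1 library left out, the 9 ran from 4 to 15 and the count over all genes from 450 to 1871.

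**Figure D5:**
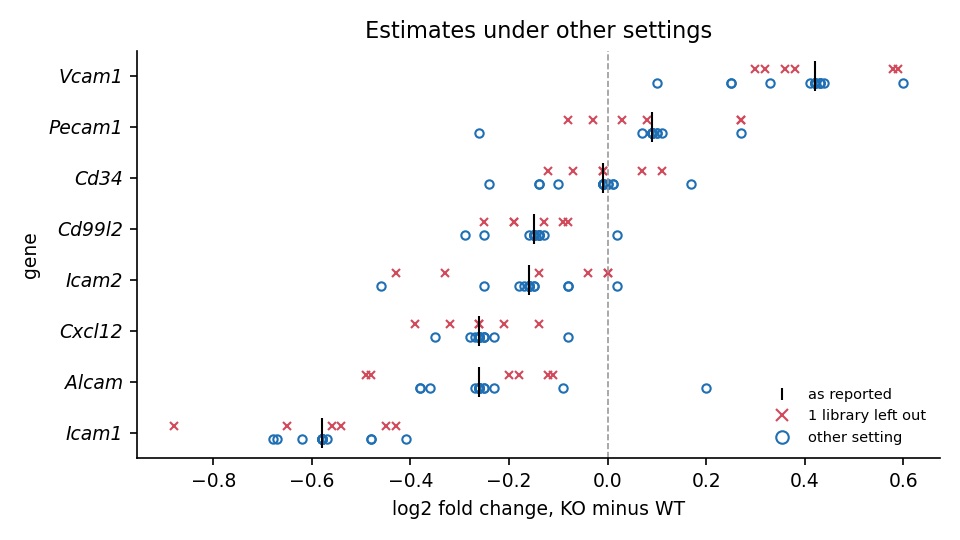
Estimated log2 fold change of the 8 genes, KO minus WT, as reported (black bar), with 1 library left out (red crosses) and under other settings (blue circles). *Icam1* stays below 0, from −0.88 to −0.41, and *Vcam1* above 0, from 0.10 to 0.60, while *Cd34* falls on both sides of 0.

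Under these settings the estimate ranged from −0.88 to −0.41 for *Icam1*, from 0.10 to 0.60 for *Vcam1* and from −0.39 to −0.08 for *Cxcl12*. The filters, the block, the variance option and the exact test leave an estimate as it is by construction and bear only on its p. None of the 8 genes reached an adjusted p under 0.05 in any of them. The smallest adjusted limma p was 0.481 for *Icam1* and 0.305 for *Vcam1*, both without KO 2.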

How the data were processed

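RNA was taken with TRIzol from brain microvessels enriched by dextran centrifugation and a strainer, and directional libraries were sequenced paired-end. The authors trimmed the reads and aligned them with TopHat, and the labels name mm10. The deposited values are FPKM, 1 table per library. The program and annotation behind the FPKM are not given in the sources used here, nor is the use of strand.

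The tables hold no counts, so a count model could not be used. Testing used limma 3.58.1 (R 4.3.3) on log2(FPKM + 1) values of genes whose average across all 6 libraries reached 1 FPKM (trended prior variance, Benjamini-Hochberg adjustment over 14247 genes). Fold changes on this scale understate those of low genes. For single genes and ratios, all regroupings of the 6 libraries gave an exact permutation p, two-sided. Depth was estimated from the FPKM worth of 1 fragment in 2245 genes with a single transcript longer than 1500 bases, so fragment numbers are approximate. Transcript lengths, GC content and positions came from GENCODE M21 by symbol.

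Members, gene lists, tests and alternatives were chosen with earlier results of these data known. Text names all members, the deleted gene, a few fixed reference genes and counter-receptors, and from each pathway list up to 4 genes with the smallest unadjusted p under 0.05 and the 2 highest. *Nfkbia* is named as the gene most like *Vcam1*. The T-cell partner *Cd6*, the marker genes, the ratios and the promoter motifs were chosen after values or sequences had been seen. Replicate numbers in the titles differ from those in the table headers, so they were not taken as pairs. No table of the 6 was left out, and 0 value columns lacked a sample.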

Additional observations from a re-analysis of the deposited data

How the results depend on the processing

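None of the alternative settings gave 1 of the 8 genes an adjusted p under 0.05. Before adjustment, 2 settings for *Icam1* (a filter of 5 FPKM, without WT 3) and 3 for *Vcam1* (scaling to the EC list, without WT 1, without KO 2) passed that threshold. *Cd34*, at −0.01, became 0.01 with a trimmed-mean factor, 0 with median scaling, 0.17 with scaling to the EC list and 0.01 with a length correction, and ran from −0.12 to 0.11 with 1 library left out. Scaling to the EC list, which moved the median of all genes to 0.17, gave 0.02 for *Icam2* and 0.02 for *Cd99l2*. With 1 library left out, *Pecam1* ran from −0.08 to 0.27 and *Selp*, as a difference of group means with no fit, from −0.07 to 0.33. With KO 1 and KO 3 left out together, an alternative chosen after seeing the data like scaling to *Pecam1*, *Pecam1* was −0.26 and *Alcam* 0.20.

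The number of the 8 genes at an unadjusted p under 0.05, 0 as reported, was 1 with a filter of 5 FPKM, 1 with scaling to the EC list and 0 to 1 with 1 library left out. Over all genes the count of 838 ran from 450 to 1871 with 1 library left out, without WT 2 and without KO 2 respectively, and was 510 without KO 1. It was 391 with scaling to *Pecam1* and 1825 without KO 1 and KO 3. At an adjusted p under 0.05 it was 1 with no filter, 0 to 4 with 1 library left out and 7 without KO 1 and KO 3. In that last setting KO 2 is the only KO library and is assumed to vary like the WT libraries, so its counts compare 1 library with a group. The 9 genes of the 5 lists became 4 without WT 2, 5 without KO 1 and 15 without KO 2, a range of 4 to 15, and 5 with scaling to *Pecam1*. For the NF-kB list the count of 5 was 3 with scaling to the EC list or a filter of 5 FPKM. It was 2 without WT 2, without KO 1 or with scaling to *Pecam1*, and 6 without KO 2. For the other adhesion genes the count of 3 was 1 without WT 2, KO 1 or KO 3 and 5 without KO 2. The cause of these changes was not tested.

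With the replicate number as a block, 440 genes were higher and 431 lower at an unadjusted p under 0.05, and 0 of the 8 genes and 3 of the chemokine list were called. Block and GC correction together gave 421 higher and 312 lower. Same-numbered WT and KO libraries deviated together with r of 0.037, 0.027 and 0.002, so the numbers are no sign of pairing. Depth limits statements on *Selp* and *Sele* most.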

Other observations

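Patterns of the list genes across the 6 libraries were compared with those of each member by Pearson's r on log2(FPKM + 1), over 155 candidates. Libraries of 2 groups share depth and cell composition, so these are descriptions of likeness. *Icam1* was most like *Csf1r*, the growth factor receptor of microglia (r of 0.962), *Col1a2*, a collagen chain of fibroblasts (0.95), and *Pdgfrb*, the pericyte receptor (0.949). *Icam2* was most like *Ikbkb*, an NF-kB kinase (0.923), *Cldn5*, the tight junction claudin (0.913), and *Esam*, a junctional adhesion molecule (0.908).

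*Vcam1* was most like *Nfkbia* (0.987), *Cav1* (0.956) and *Ttr* (0.884). *Pecam1* was most like *Ocln*, occludin (0.94), and *Cd34* was most like *Ezr* (0.886). *Alcam* was most like *Cldn11*, the claudin of myelin (0.894), *Cd99l2* like *Pdgfra*, a fibroblast receptor (0.962), and *Cxcl12* like *Itgb7*, an integrin chain of lymphocytes (0.994), which stood at low levels.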
